A study of Mus musculus with 120 samples.

Results

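The respiratory chain of the inner mitochondrial membrane is built in part from nuclear genes, and 92 of them were followed through mouse gastrulation and through neural differentiation of stem cells. The genes were taken by symbol, from a set proposed with earlier results of these data known: those present in both count tables whose names begin with Nduf and a, b, c, s or v, with Uqcr, with Cox and a digit of 4 to 8, or with Atp5, together with Sdha, Sdhb, Sdhc and Sdhd. They are 92 of the 23154 genes in each table. Of these, 36 encode subunits of complex I, 4 of complex II, 8 of complex III, 19 of complex IV and 15 of complex V. The remaining 10 are assembly factors or other genes caught by the pattern, such as the complex I assembly factors of the Ndufaf series. None of the 26 names looked up for the mitochondrial genome's own genes stood in either table, so everything below concerns nuclear genes.

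Complexes I to IV carry electrons from NADH or succinate to oxygen, and complexes I, III and IV pump protons across the membrane as they do so. Complex V, the ATP synthase, lets the protons back in and makes ATP. Complexes I, III, IV and V have a core conserved from bacteria and in mammals further accessory subunits, while complex II consists of its conserved subunits. Core subunits of complex I such as Ndufs1 and Ndufv1 hold the iron-sulphur clusters and the NADH site. Pluripotent cells often rely strongly on glycolysis, and oxidative metabolism generally gains weight as cells differentiate.

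The series of 120 samples describes the epigenome of the mouse gastrula, and its 28 RNA libraries are used here. Embryos of the ICR strain were taken at E6.5, E7.0 or E7.5, where E counts days post coitum. The extra-embryonic part, labelled ExE, was cut from the embryonic one, which is labelled Epi at E6.5. The embryonic part was divided into regions labelled P and A at E7.0 and P, AM and A at E7.5, giving 9 groups of 2 libraries. In the other 10 libraries, cells of the mouse embryonic stem cell line E14/TG2A were either deleted for an enhancer named Enh9E with CRISPR-Cas9 (KO, 3 libraries a day) or carried no deletion (WT, 2 libraries a day). They were collected on day 8 of neural differentiation (D8, labelled as neural progenitors) or undifferentiated (D0). The labels do not say how many embryos went into a library, whether replicates were separate cultures, or whether the KO cells are 1 clone, and p-values then reflect only how these libraries vary, which may be technical. The labels name no target of Enh9E, so the deletion itself was not checked.

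Totals ran from 5.15 to 17.14 M (mega) counts per embryo library and from 5.96 to 13.18 M per cell library. Levels are given in CPM, that is a gene's counts per M of the library's effective total as set by TMM scaling, which corrects for composition. They are compared between libraries and never between genes, since transcript lengths were not used. Of the 92 genes, 87 passed the filter on low counts in each table. Ndufs5 was listed at 0 in every library of both tables. Cox6a2 had 3 counts over all embryo libraries and 3 over all cell libraries, Cox7b2 48 and 8, Cox8b 1 and 0, and Cox8c 26 and 10. Markers were in keeping with the ExE label. At E7.5 the summed level of 8 genes of extra-embryonic ectoderm was 205 and 226 CPM in the ExE libraries, against 50.3 to 78.6 CPM in the 6 embryonic ones. The E7.5 ExE also held visceral endoderm, the absorptive layer around the egg cylinder: 12 of its markers summed to 15900 and 20300 CPM in ExE, against 19.5 to 8020 CPM in the embryonic regions. At E6.5 they summed to 6780 and 8960 CPM in ExE, against 3860 and 6250 CPM in Epi. At E7.0 the sums were 8260 and 6700 CPM in ExE, against 1750 to 4080 CPM in P and A.

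Promoter sequence is shown for 7 of the genes on which the comparisons below turn, for a reader to see what these start sites look like. RefSeq promoter windows of GRCm38.p6, the assembly behind the build mm10 named for these data, were matched for 76 of the 92 genes. Each line gives the bases just upstream of the start site that lie outside any annotated gene, 5′ to 3′ on the gene's strand, and capitals mark the motifs searched. The motifs were GCGCANGCG of NRF1, a factor known for respiratory chain genes, AAGATGGCG of YY1, CCGGAAG of the ETS family and TCAAGGTCA of the oestrogen-related receptors, each on both strands.
Ndufb10 (chr17:24724424-24724673, minus strand, complex I, NRF1 letters across the start): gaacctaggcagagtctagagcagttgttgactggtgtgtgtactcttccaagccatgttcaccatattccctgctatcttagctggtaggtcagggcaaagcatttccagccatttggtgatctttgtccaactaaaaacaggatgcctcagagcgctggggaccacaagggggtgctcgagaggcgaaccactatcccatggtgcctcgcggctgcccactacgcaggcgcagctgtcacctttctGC
Ndufa5 (chr6:24527691-24527940, minus strand, complex I, NRF1 letters): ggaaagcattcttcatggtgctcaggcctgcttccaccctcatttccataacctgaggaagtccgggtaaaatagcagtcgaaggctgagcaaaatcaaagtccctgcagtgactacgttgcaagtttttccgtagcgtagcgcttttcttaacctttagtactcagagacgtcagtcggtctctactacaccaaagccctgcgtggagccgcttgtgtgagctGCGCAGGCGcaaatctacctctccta
Ndufa9 (chr6:126849145-126849394, minus strand, complex I, no motif upstream): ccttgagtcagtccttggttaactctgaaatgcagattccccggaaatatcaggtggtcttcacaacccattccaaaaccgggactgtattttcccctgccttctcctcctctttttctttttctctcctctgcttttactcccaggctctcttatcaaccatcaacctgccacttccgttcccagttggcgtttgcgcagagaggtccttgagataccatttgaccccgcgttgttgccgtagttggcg
Uqcr11 (chr10:80406822-80407071, minus strand, complex III, ETS letters and NRF1 letters across the start): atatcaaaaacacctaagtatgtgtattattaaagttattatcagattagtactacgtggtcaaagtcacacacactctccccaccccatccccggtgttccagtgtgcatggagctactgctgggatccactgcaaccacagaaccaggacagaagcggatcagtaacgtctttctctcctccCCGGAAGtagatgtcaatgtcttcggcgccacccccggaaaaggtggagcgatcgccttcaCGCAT
Uqcr10 (chr11:4704345-4704594, minus strand, complex III, no motif): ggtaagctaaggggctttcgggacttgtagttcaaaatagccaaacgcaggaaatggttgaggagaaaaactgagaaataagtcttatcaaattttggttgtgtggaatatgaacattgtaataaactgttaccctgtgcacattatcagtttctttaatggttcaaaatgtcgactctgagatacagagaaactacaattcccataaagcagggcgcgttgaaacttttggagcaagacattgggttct
Atp5g1 (chr11:96075695-96075881, minus strand, complex V, no motif): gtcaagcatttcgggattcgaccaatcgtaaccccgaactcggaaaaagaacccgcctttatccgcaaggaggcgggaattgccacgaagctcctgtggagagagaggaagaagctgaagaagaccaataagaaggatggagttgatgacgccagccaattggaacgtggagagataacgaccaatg
Atp5b (chr10:128083057-128083306, plus strand, complex V, no motif): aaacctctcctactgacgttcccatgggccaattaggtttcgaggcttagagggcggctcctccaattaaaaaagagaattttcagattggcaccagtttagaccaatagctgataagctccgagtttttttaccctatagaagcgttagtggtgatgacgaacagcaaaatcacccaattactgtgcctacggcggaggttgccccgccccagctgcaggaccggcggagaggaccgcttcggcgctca
All of these except Atp5b were called in the ExE comparison at E7.5, the KO comparison at D8 or both. In Ndufb10 and Uqcr11 the NRF1 letters run across the start site, so that only their upstream bases are shown and capitalised, and in Ndufa9 the YY1 letters lie after the start and are not shown. For Atp5g1, 187 bases lie outside the gene as annotated, and 250 for the others. The NRF1 letters lay within the window of 250 bases before to 50 after the start in 22 of the 76 genes, or 28.9%, against 7.03% of all 27025 genes with a window. The shares were 10.5% of the respiratory chain genes against 1.64% of all genes for the YY1 letters, 22.4% against 9.93% for the ETS letters and 2.63% against 0.466% for the receptor letters. Of the genes called higher in E7.5 ExE, described below, 12 of 43 with a window (27.9%) held the NRF1 letters, against 9 of 30 (30%) of those not called. For KO cells at D8 these were 9 of 29 (31%) of the genes called higher and 12 of 44 (27.3%) of those not called. The 27025 genes were all those with a window, expressed in these samples or not, and no comparison with genes of like level was made. A match is a run of letters and was not tested for binding.

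**Figure D1:**
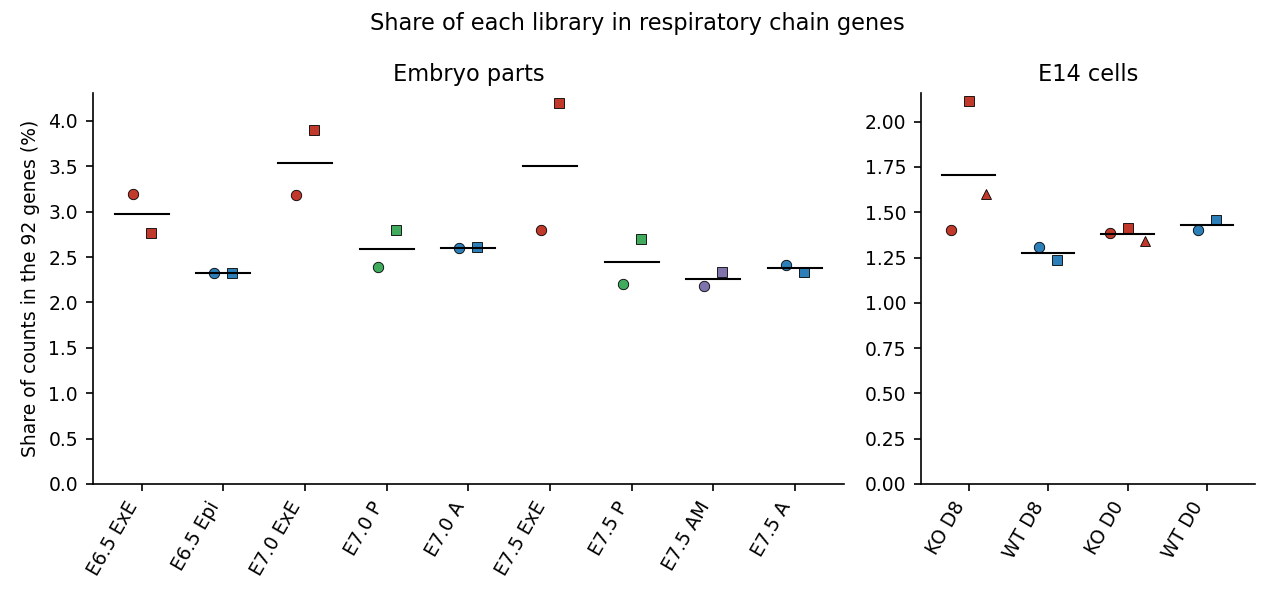
Share of all counts in a library taken by the 92 genes together, in percent, for each of the 28 libraries by group. Each mark is 1 library, its shape gives the replicate number and the black line is the group mean. The E7.5 ExE libraries stand at 2.797% and 4.2%, and the KO libraries at D8 at 1.401%, 2.112% and 1.599% against 1.309% and 1.237% in WT.

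Together the 92 genes took more of the counts in ExE than in the embryonic part at every stage, though with replicates that lay far apart. Their share was 3.192% and 2.763% in ExE at E6.5, against 2.328% and 2.323% in Epi, a ratio of 1.28 ± 0.13 (propagated SD, n = 2 and 2). At E7.0 it was 3.178% and 3.896% in ExE, against 2.386% and 2.797% in P and 2.602% and 2.605% in A, a ratio of 1.36 ± 0.214. At E7.5 it was 2.797% and 4.2% in ExE, against 2.206% and 2.695% in P, 2.179% and 2.34% in AM and 2.414% and 2.334% in A, a ratio of 1.48 ± 0.436. In each stage both ExE libraries stood above every embryonic library, at E7.5 by a narrow margin for the lower one. The shares are a description and were not tested. In these bulk samples, fewer cells of a type and less RNA per cell cannot be told apart.

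Of the embryo comparisons, the most genes were called at E7.5, where 49 of the 87 tested genes rose in ExE relative to the mean of P, AM and A and none fell. Of all 14403 genes tested, 13.4% were called higher and 7.91% lower (edgeR quasi-likelihood test, Benjamini-Hochberg adjusted p under 0.05, here and below). DESeq2 called 49 of the 87 higher and 1 lower, and scaling by total counts alone gave 32 higher and 0 lower, with 978 of all genes called higher and 1221 lower, against 1934 and 1139 with TMM scaling. The median log2 fold change of the 87 genes was 1.03, and that of all genes -0.02. Complex I had 26 of 35 tested subunits higher, complex IV 9 of 15, complex III 4 of 8, complex V 6 of 15, and the assembly factors and others 4 of 10. None of the 4 complex II subunits was called. The 2 ExE libraries differed widely, with the higher value in replicate 2 for each gene whose levels are given below. Without ExE replicate 2, 2 genes were called and the median above that of all genes was 0.451, against 1.06 with it. Without P replicate 1 there were 31 calls.

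Within complex I, most of the genes called were accessory subunits. Ndufb10, an accessory subunit of the membrane arm (chromosome 17, 24722060 to 24724423), had 267 and 561.9 CPM in ExE at E7.5, against 100.3 and 152.3 CPM in P, 97.98 and 123.6 CPM in AM and 115.4 and 103 CPM in A. Both ExE libraries stood above all 6 embryonic ones, and the log2 fold change was 1.85 ± 0.26 (SE, adjusted p = 0.00015). Ndufb11 and Ndufb6, of the same arm, rose by 1.68 ± 0.27 (adjusted p = 0.000484) and 1.62 ± 0.27 (adjusted p = 0.000559), also with no overlap between libraries. Ndufa5, an accessory subunit of the matrix arm, is named for its fold change after its values were seen. It had 197.1 and 579 CPM in ExE, against 92.31 and 200.9 CPM in P, 70.88 and 100.9 CPM in AM and 83.55 and 88.24 CPM in A. The lower ExE library lay just under P replicate 2, and the log2 fold change was 1.92 ± 0.37 (adjusted p = 0.00199). In all, 23 of the 28 tested accessory subunits were called higher, with a median of 1.29.

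Of the 7 nuclear core subunits of complex I, 3 were called: Ndufs3, Ndufs7 and Ndufs8 rose by 0.87, 1.15 and 1.42 on the log2 scale. Ndufs1, which carries iron-sulphur clusters, had 109.7 and 112.4 CPM in ExE, against 132.7 and 125.2 CPM in P, 105.3 and 105.1 CPM in AM and 143.8 and 106.4 CPM in A. Its ExE values lay inside the embryonic range (log2 fold change -0.10, adjusted p = 0.768). Ndufv1, the NADH-binding subunit, was at 0.26 (adjusted p = 0.555). The ratio of accessory to core counts within a library needs no scaling: it was 3.75 and 5.96 in E7.5 ExE, against 3.05 and 4.14 in P, 3.32 and 3.45 in AM and 3.04 and 3.21 in A. ExE replicate 1 thus lay below P replicate 2. At E7.0 the ratio was 3.82 and 6.66 in ExE, against 3.02 and 3.7 in P and 3.85 and 3.6 in A, and at E6.5 it was 5.01 and 3.49 in ExE, against 3.59 and 3.22 in Epi, so that the groups overlapped at both stages.

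Sdha, the flavoprotein of complex II that oxidises succinate, had 259.6 and 283.1 CPM in E7.5 ExE, against 371.9 and 384.5 CPM in P, 327.5 and 365.8 CPM in AM and 385 and 318.5 CPM in A. Both ExE libraries were below all embryonic ones, yet the difference of -0.40 on the log2 scale was not called (adjusted p = 0.213). In complex III, the small subunits Uqcr11, Uqcrq and Uqcr10 rose by 1.75 ± 0.36 (adjusted p = 0.00262), 1.94 ± 0.41 (adjusted p = 0.00332) and 1.75 ± 0.45 (adjusted p = 0.0119). Uqcrq had 524 and 1393 CPM in ExE, against 167.4 and 601.4 CPM in P, 138.4 and 269.4 CPM in AM and 182.6 and 213.1 CPM in A, and here too P replicate 2 exceeded the lower ExE library. Uqcrfs1, the Rieske iron-sulphur protein of the catalytic core, was at 0.59 and was not called (adjusted p = 0.0634).

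In complex IV, Cox5a and Cox4i1, subunits that pack against the mitochondrially encoded core, rose by 1.43 ± 0.30 (adjusted p = 0.00298) and 1.09 ± 0.30 (adjusted p = 0.0161), and both ExE libraries were above all others. Cox7a1, the isoform known from heart and skeletal muscle, had the widest fold change of the 87 genes, but at low levels and mostly in 1 library. It stood at 3.419 and 26.92 CPM in E7.5 ExE, against 1.382 and 1.443 CPM in P, 2.882 and 1.929 CPM in AM and 3.19 and 2.819 CPM in A (log2 fold change 2.80 ± 0.51, adjusted p = 0.00116). It was also high in E7.0 ExE, at 11.26 and 29.89 CPM, against 4.543 and 4.062 CPM in P and 5.556 and 5.104 CPM in A. Cox7a1 made up 1.47% and 2.48% of the counts of Cox7a1, Cox7a2 and Cox7a2l together in E7.0 ExE, against 0.486% to 0.86% in the 4 embryonic libraries of that stage. The ubiquitous forms Cox8a, Cox6a1 and Cox7b each took at least 99.7% of their isoform set.

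**Figure D2:**
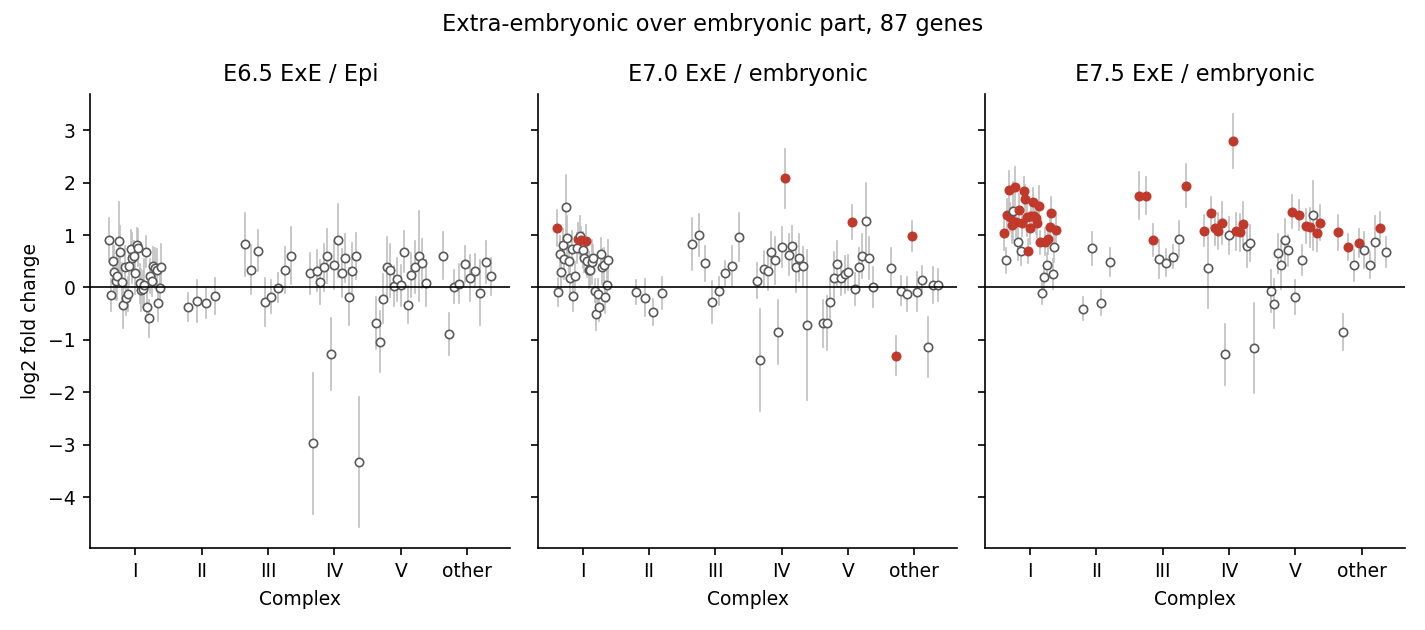
Log2 fold change of the 87 tested genes by complex in the ExE comparisons, with ExE over the embryonic part. Filled red points are genes called at an adjusted p under 0.05, open points were not called and grey bars are standard errors. At E7.5 most points of complex I lie above 0 and are called, while the 4 points of complex II are all open.

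In complex V, 6 of 15 genes were called. Atp5g3 and Atp5g1, 2 of the 3 genes for subunit c of the membrane ring, rose by 1.38 ± 0.29 (adjusted p = 0.00331) and 1.45 ± 0.31 (adjusted p = 0.00399), and Atp5o, a subunit of the stalk, by 1.24 ± 0.34 (adjusted p = 0.0157). The third ring gene Atp5g2 was at -0.18 (adjusted p = 0.733). Atp5b, the catalytic beta subunit, had 2056 and 2587 CPM in ExE, against 2300 and 6785 CPM in P, 1468 and 3401 CPM in AM and 2003 and 2266 CPM in A, with a log2 fold change of -0.31 (adjusted p = 0.694). Atp5a1, the alpha subunit, was at -0.06 (adjusted p = 0.931). The counts of the other complex V genes over those of Atp5a1 and Atp5b were 2.05 and 2.65 in E7.5 ExE, against 1.14 and 0.944 in P, 1.36 and 0.873 in AM and 1.27 and 1.04 in A. At E6.5 this ratio was 2.58 and 1.69 in ExE, against 0.989 and 1.01 in Epi, and at E7.0 it was 2.03 and 3.92 in ExE, against 1.37 and 1.35 in P and 2.59 and 1.25 in A. The ExE libraries were above all embryonic ones at E6.5 and E7.5, and at E7.0 A replicate 1 fell between them.

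At the earlier stages far fewer genes were called. Fewer embryonic libraries stood against ExE there than at E7.5, so a difference of the same size was less likely to be called. At E7.0, 7 rose and 1 fell in ExE relative to the mean of P and A, against 10% of all genes called higher and 8.14% called lower, and the median was 0.38, against -0.04 over all genes. Scaling by total counts alone gave 18 higher and 0 lower. Those that rose were Atp5g3 (1.25), Cox7a1 (2.09), Ndufb3 (0.91), Ndufaf2 (0.98), Ndufa1 (1.14), Ndufb11 (0.93) and Ndufb6 (0.89), with adjusted p-values of 0.0131 to 0.0462. Atp5sl, a gene named for similarity to an ATP synthase factor, fell by 1.30 (adjusted p = 0.0215). It had 19.24 and 5.762 CPM in ExE, against 37.09 and 32.24 CPM in P and 29.3 and 27.93 CPM in A. Between 0 and 16 genes were called when 1 library was left out, with 0 without ExE replicate 2, 16 without ExE replicate 1, 2 without P replicate 1, 5 without P replicate 2 and 4 without A replicate 2. At E6.5 none was called in either direction, against 3.69% and 5.24% of all genes, 7 passed an unadjusted p of 0.05 and DESeq2 called 0. The median there was 0.24, against 0.03 over all genes.

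Counting the genes for which every ExE library lay above every embryonic library gave 38 of 87 at E6.5, against 31.5% of all genes, 21 at E7.0 against 16.9%, and 23 at E7.5 against 16.5%. The reverse held for 13 genes at E6.5 against 31.6% of all genes, 2 at E7.0 against 19.2% and 4 at E7.5 against 17.5%. Of the 49 genes called at E7.5, 21 did not overlap, and Ndufa5 and Uqcrq above are examples in which P replicate 2 exceeded ExE replicate 1. The change of the ExE difference between E6.5 and E7.5 had a median of 0.76 but called none of the 87 genes, with a lowest adjusted p of 0.273, against 0.16% of all genes called higher and 0.0278% called lower. There 17 genes passed an unadjusted p of 0.05 and DESeq2 called 0. A larger ExE difference at E7.5 than at E6.5 was therefore not shown for any single gene.

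**Figure D3:**
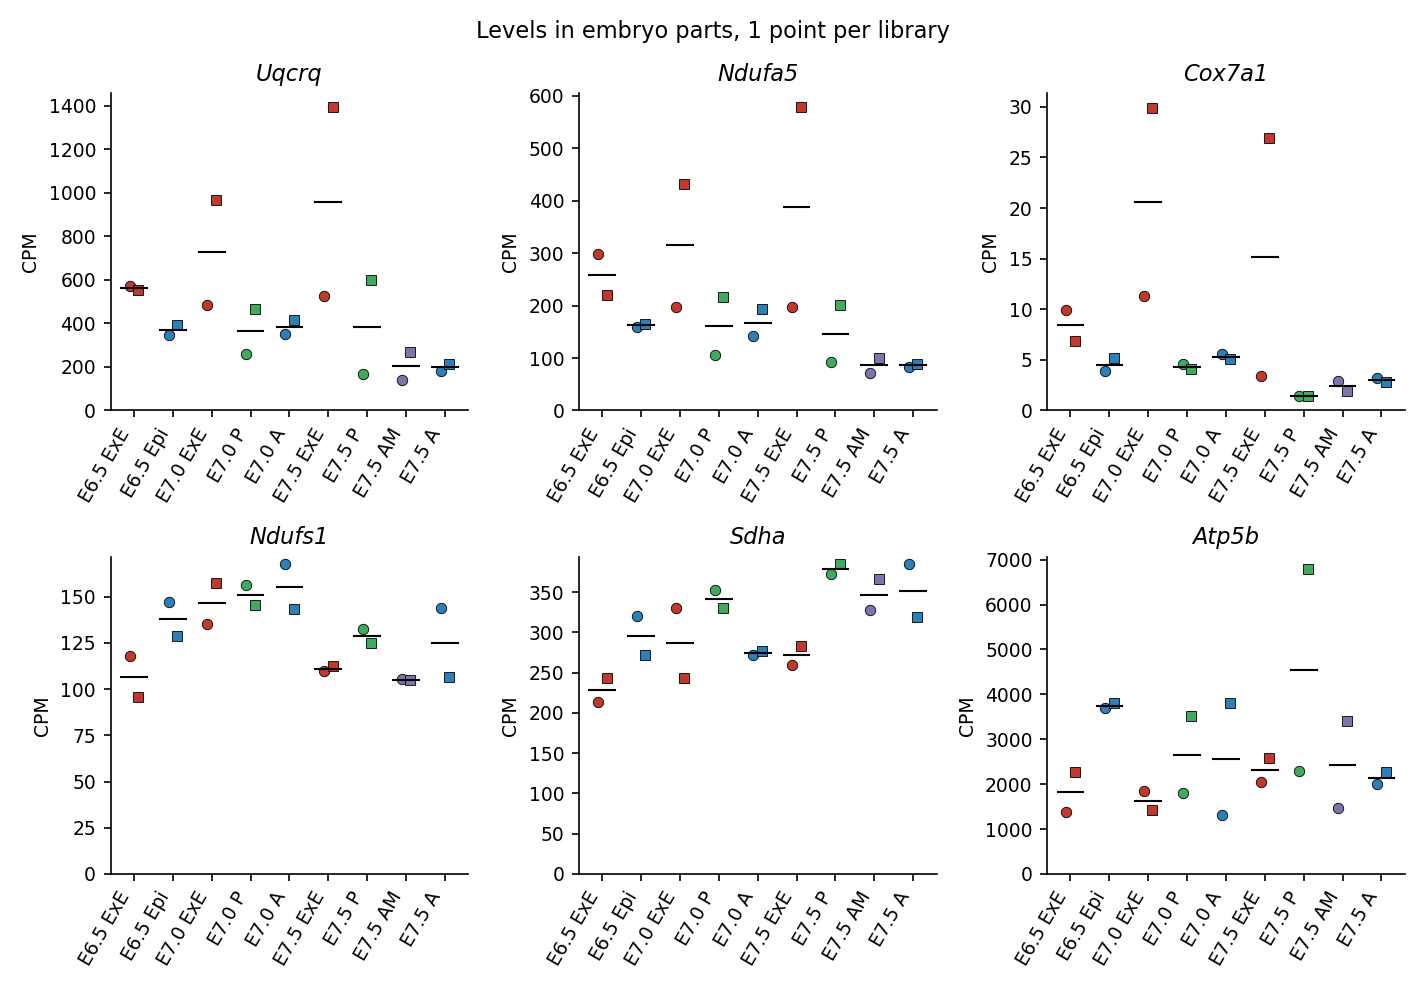
Level in CPM of Uqcrq, Ndufa5, Cox7a1, Ndufs1, Sdha and Atp5b in the 18 embryo libraries by group. Each mark is 1 library, its shape gives the replicate number and the black line is the group mean. Uqcrq, Ndufa5 and Cox7a1 are highest in ExE replicate 2 of E7.5 or E7.0, whereas Ndufs1 stays between 95.58 and 167.9 CPM throughout.

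Among the embryonic regions and along embryonic time, no gene of the 87 was called in the fit, which did not pair libraries. For P relative to A at E7.0 the median was -0.13, with 0.00694% and 0% of all genes called higher and lower, 1 gene at an unadjusted p under 0.05 and 0 by DESeq2. For P relative to A at E7.5 the median was 0.46, with 0.201% and 0.0347% of all genes called, 8 genes at an unadjusted p under 0.05 and 0 by DESeq2. P replicate 2 of E7.5 carries that median: without it the median above that of all genes was -0.0425, against 0.44 with it. With total counts alone as the scale the median was -0.0965, against -0.426 over all genes. The same library had 13.666% of its counts in cytosolic ribosomal protein genes, against 7.518% in P replicate 1. Its 12 visceral endoderm markers summed to 7460 CPM, against 730 CPM in P replicate 1, and its TMM factor was 0.659, against 1.13. The part of these in the result was not tested. For AM relative to A at E7.5 the median was -0.06, with 1.15% and 0.417% of all genes called, 0 genes at an unadjusted p under 0.05 and 0 by DESeq2. For the embryonic regions of E7.5 relative to Epi of E6.5 it was -0.18, with 1.07% and 1.56% of all genes called, 3 genes at an unadjusted p under 0.05 and 0 by DESeq2, and 0.163 with total counts alone, against 0.374 over all genes. For ExE of E7.5 relative to ExE of E6.5 it was 0.56, with 0.93% and 0.0417% of all genes called, 17 genes at an unadjusted p under 0.05 and 3 by DESeq2.

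Other nuclear genes of the mitochondrion were read from lists chosen with earlier results of these data in view. In E7.5 ExE, 51 of 76 tested genes for proteins of the mitochondrial ribosome rose and none fell, with a median of 0.90 and Mrpl30 at 1.79, Mrps18a at 2.02 and Mrpl41 at 1.54. Of 44 further assembly factors of the chain, 15 rose and none fell, among them Cox14 (1.70), Coa4 (1.79) and Uqcc2 (2.03), with a median of 0.74. Of 12 electron carriers and related enzymes, 4 rose, among them Cycs (1.76), the gene of cytochrome c, and Chchd4 (1.96), which oxidises proteins imported into the intermembrane space. Of 6 partners of the ATP synthase, 3 rose: the ADP and ATP carriers Slc25a4 (1.72) and Slc25a5 (1.24), and Atpif1 (1.14), an inhibitor of the synthase. In the citric acid cycle list 4 of 20 rose and 1 fell, with a median of 0.31, and Mpc2 (2.47) and Mpc1 (1.84) form the pyruvate carrier. Of 16 regulators of mitochondrial biogenesis, only Esrra rose, by 2.06, and only Nrf1 fell, by 1.01. Of all genes 13.4% were called higher and 7.91% lower. The few calls among the regulators and in the citric acid cycle list therefore do not set these 2 lists apart. By comparison, 5 of 82 tested genes for cytosolic ribosomal proteins, a list added after seeing the data, rose, with a median of 0.47. The visceral endoderm sums given above were higher in both E7.5 ExE libraries than in every embryonic library. So were those of 6 blood markers, at 113 and 71.1 CPM in ExE, against 2.07 to 13.7 CPM in the embryonic libraries. All 4 blood markers tested rose, among them Hbb-bh1, an embryonic globin, by 10.23. The part of either list in these changes was not tested.

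In differentiation of the stem cells without the deletion, a smaller share of these genes than of all genes was called. More of them fell than rose. Of the 87 tested, 3 rose and 19 fell in WT at D8 relative to D0, against 27.9% and 29.3% of all 14629 genes tested. In either direction 25.3% of the 87 were called, and the shares that rose and fell each lay below that of all genes. The median was -0.18, against -0.05 over all genes. The share of counts was 1.309% and 1.237% at D8, against 1.4% and 1.459% at D0, a ratio of 0.891 ± 0.0441. Atp5g1 had 103.5 and 104.6 CPM at D8, against 408 and 414.2 CPM at D0, a change of -1.98 ± 0.21 (adjusted p = 1.45e-05). Uqcrc1, a core protein of complex III, had 121.7 and 137.8 CPM at D8, against 403.4 and 396.7 CPM at D0, a change of -1.62 ± 0.19 (adjusted p = 2.83e-05). Replicates were close and the days far apart for both genes. Atp5b, Atp5a1, Cox7a1, Cox8a and Cox5a also fell, by 1.03, 0.70, 2.16, 0.67 and 1.27, while Cox7a2l (0.78), Atp5s (1.06) and Cox6b2 (0.72) rose. Leaving out any 1 of the 4 WT libraries left between 10 and 14 calls. With scaling by total counts alone, 5 genes rose and 12 fell, and the median was 0.118, against 0.253 over all genes.

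In KO cells the balance was the other way. Over the same days 46 genes rose and 7 fell, against 33.4% and 31.1% of all genes, and the median was 0.54, against 0.05 over all genes. The turn was not particular to these genes. Of 81 tested genes for cytosolic ribosomal proteins, 62 rose and 4 fell in KO, with a median of 0.65. In WT 0 of those 81 rose and 11 fell, with a median of -0.31. Ndufa1, Ndufb5 and Ndufa2 of complex I rose by 1.28, 1.25 and 1.83, and Sdhd and Sdhb of complex II by 0.76 and 1.04. Cox7a2l, a factor in joining complexes III and IV, rose by 1.45, and Atp5g2 by 0.74. The 7 that fell were Atp5b (by 0.81), Atp5a1 (by 0.31), Atp5g1 (by 0.71), Atp5sl (by 0.85), Uqcrc1 (by 1.05), Cox5a (by 0.67) and Cox7a1 (by 1.90), each of which also fell in WT. The share of counts was 1.401%, 2.112% and 1.599% at D8, against 1.383%, 1.414% and 1.343% at D0, a ratio of 1.23 ± 0.268.

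Among undifferentiated cells, none of the genes was called in KO relative to WT at D0, against 0.185% and 0.0889% of all genes called higher and lower, 2 passed an unadjusted p of 0.05 and DESeq2 called 0. The median was -0.11, and the share ratio 0.965 ± 0.0376.

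At D8, 33 of the 87 genes rose in KO relative to WT and 1 fell, against 12.5% and 8.24% of all genes, with a median of 0.73, against 0.02 over all genes. Complex I had 14 of 35 higher, complex II 1 of 4, complex III 5 of 8, complex IV 8 of 15 with 1 lower, complex V 4 of 15 and the assembly factors and others 1 of 10. All 14 complex I genes were accessory subunits, of 28 tested, and none of the 7 core subunits was called. Every KO library lay above every WT library for 64 of the 87 genes, against 25.3% of all genes, and below for 1, against 22.2%. Scaling by total counts alone gave 17 higher and 1 lower, with 1053 of all genes called higher and 1739 lower, against 1834 and 1205 with TMM scaling. The number called rested on single libraries: it was 5 without either WT library, 15 without KO replicate 3, 19 without KO replicate 2 and 69 without KO replicate 1. The share of counts was 1.401%, 2.112% and 1.599% in KO, against 1.309% and 1.237% in WT, a ratio of 1.34 ± 0.293 with KO replicate 1 close to the WT libraries.

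Atp5g1 had the smallest p. Its levels were 205.2, 337.1 and 255.7 CPM in KO at D8, against 103.5 and 104.6 CPM in WT, a log2 fold change of 1.35 ± 0.19 (adjusted p = 0.00193). Cox5b, a zinc-binding subunit of complex IV, had 279.3, 418.2 and 328.6 CPM in KO, against 158 and 145.9 CPM in WT (1.17 ± 0.17, adjusted p = 0.00216). Ndufa9, an accessory subunit near the quinone site of complex I, had 216.9, 355.8 and 262.8 CPM in KO, against 132 and 114.9 CPM in WT (1.17 ± 0.19, adjusted p = 0.00316). In all 3 genes the KO and WT libraries did not overlap and KO replicate 2 was the highest. Ndufa4 rose by 1.47 ± 0.27 (adjusted p = 0.00469), Ndufb2 by 1.66 ± 0.33 (adjusted p = 0.00705), Uqcr10 by 1.21 ± 0.24 (adjusted p = 0.00729), Uqcr11 by 0.98 ± 0.24 (adjusted p = 0.0179) and Sdhd by 0.58 ± 0.16 (adjusted p = 0.0279).

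Atp5b, Atp5a1, Ndufs1 and Sdha, which carry catalytic or redox sites, were not called. Not all genes with such sites moved so little at D8. Ndufv2 had means of 248 CPM in KO and 143 CPM in WT, and Sdhb 255 and 151 CPM. The SD in KO was 107 and 112 CPM, and neither gene was called. The 7 core subunits of complex I had a median of 0.45, against 0.91 for the 28 tested accessory ones. Atp5b had 1244, 1269 and 1190 CPM in KO at D8, against 1246 and 1034 CPM in WT, and its difference of 0.11 was not called (adjusted p = 0.598). Ndufs1 had 117.2, 117.9 and 117 CPM in KO, against 113.1 and 108 CPM in WT (0.09, adjusted p = 0.612). Sdha was at -0.06 (adjusted p = 0.762) and Atp5a1 at 0.26 (adjusted p = 0.201). The ratio of accessory to core counts of complex I was 2.93, 3.93 and 3.29 in KO at D8, against 2.49 and 2.59 in WT, and at D0 it was 2.33, 2.55 and 2.51 in KO, against 2.37 and 2.42 in WT. The KO libraries were thus above WT at D8 and spread around it at D0.

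**Figure D4:**
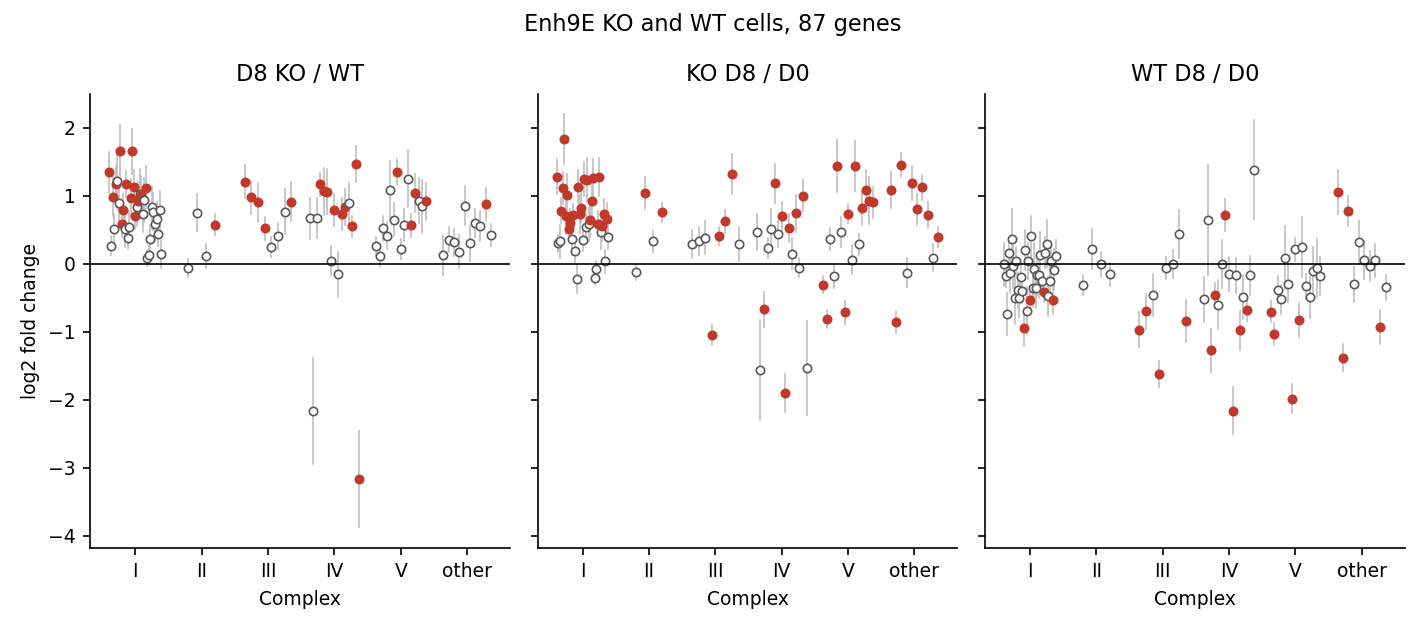
Log2 fold change of the 87 tested genes by complex in the stem cell comparisons: KO over WT at D8, and D8 over D0 in KO and in WT. Filled red points are genes called at an adjusted p under 0.05, open points were not called and grey bars are standard errors. KO over WT at D8 has 34 filled points, of which 1 lies below 0.

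Ndufa4l2 was the 1 gene that fell. It is a relative of the complex IV subunit Ndufa4 and is known as a gene induced by low oxygen. It had 10, 3 and 3 counts in KO at D8 (1.057, 0.3084 and 0.3028 CPM), against 20 and 66 counts in WT (2.956 and 7.076 CPM), a log2 fold change of -3.17 ± 0.71 (adjusted p = 0.0116). As a share of the counts of Ndufa4 and Ndufa4l2 together it was 0.446%, 0.0587% and 0.0849% in KO, against 2.12% and 5.09% in WT. Cox4i2, another isoform known from low oxygen, had 9, 6 and 1 counts in KO at D8, against 5 and 39 in WT, and was not called (-2.17, adjusted p = 0.0679). Of 14 genes of the low-oxygen response, which include Ndufa4l2, 6 fell and 1 rose in KO at D8, with a median of -1.50. Vegfa, the vessel growth factor, fell by 1.82 (adjusted p = 0.00721) and Egln1, an oxygen sensor, by 1.18 (adjusted p = 0.00203).

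The change in the KO effect between the days was called for 4 genes and was higher at D8 in each: 4 of 87 against 3% of all genes called higher, with none against 2.76% called lower, so that the share called was close to that of all genes. The count was 1 with total counts alone, 2 with the replicate block, 2 with DESeq2 size factors and 12 by DESeq2. The median was 0.83, against 0.01 over all genes and 0.96 for the cytosolic ribosomal protein genes. Atp5g1 was called at 1.27 ± 0.26 (adjusted p = 0.0256). It had 424.1, 460 and 424.8 CPM in KO at D0, against 408 and 414.2 CPM in WT and this difference at D0 was not called. Sdhd, an anchor of complex II, was called at 0.91 ± 0.22 (adjusted p = 0.0406), with 162.2, 200 and 153.4 CPM in KO at D8, against 125.5 and 104.9 CPM in WT, and 93.35, 110.7 and 101.1 CPM in KO at D0, against 119.8 and 136.6 CPM in WT. Ndufaf4, a complex I assembly factor, was called at 1.16 ± 0.29 (adjusted p = 0.0433), with 32.12, 54.39 and 41.68 CPM in KO at D8, against 28.53 and 27.66 CPM in WT, and 19.18, 20.24 and 19.13 CPM in KO at D0, against 28.03 and 29.37 CPM in WT. Both genes stood higher in KO at D8 and lower in KO at D0, with no overlap on either day. Uqcr10 was called at 1.26 ± 0.33 (adjusted p = 0.0496). The count was 0 without any 1 of KO_D8 replicate 3, KO_D0 replicates 2 and 3 and the WT libraries, 1 without KO_D0 replicate 1, 12 without KO_D8 replicate 2 and 63 without KO_D8 replicate 1.

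**Figure D5:**
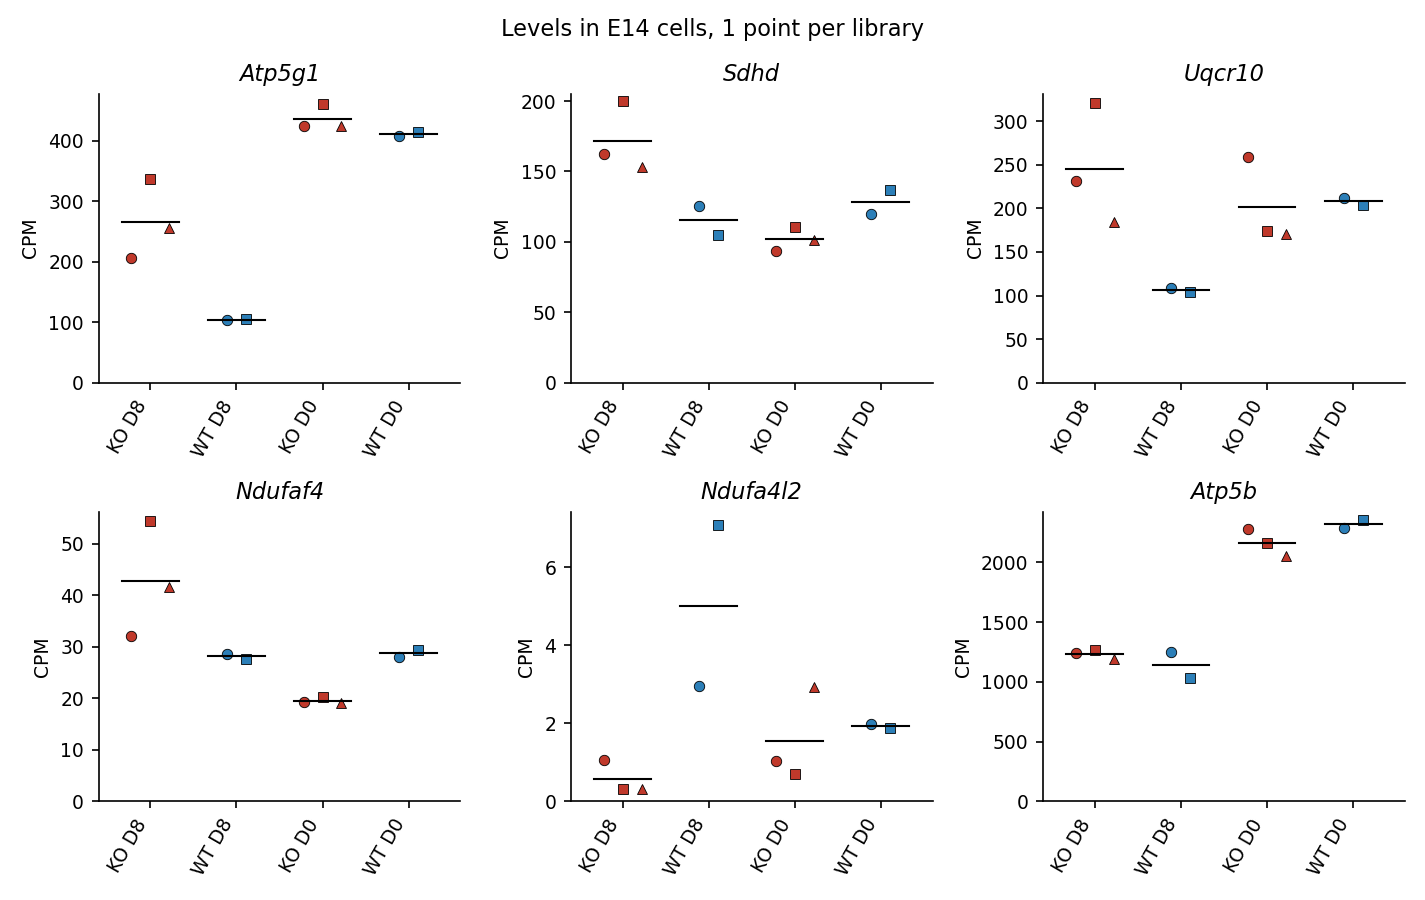
Level in CPM of Atp5g1, Sdhd, Uqcr10, Ndufaf4, Ndufa4l2 and Atp5b in the 10 stem cell libraries by group. Each mark is 1 library, its shape gives the replicate number and the black line is the group mean. Atp5g1 stands at 205.2 to 337.1 CPM in KO at D8, against 103.5 and 104.6 CPM in WT, with both genotypes between 408 and 460 CPM at D0.

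The genes behind subunit c contributed unequally on the 2 days. Of the counts of Atp5g1, Atp5g2 and Atp5g3 together, which encode the same mature protein, Atp5g1 made up 25.4%, 27% and 26.2% in KO at D8, against 14.6% and 16.2% in WT. At D0 it made up 43.8%, 43.5% and 42.8% in KO, against 37.9% and 35.7% in WT. Every KO library was above every WT library on both days. In embryos at E7.5 it was 52.2% and 78.2% in ExE, against 51.5% to 57.2% in the 6 embryonic libraries, so that ExE replicate 1 lay inside their range and replicate 2 above it. Cox7a1 made up 0.778%, 0.685% and 0.668% of the Cox7a set in KO at D8, against 1.17% and 0.935% in WT, and 6.26%, 4.71% and 5.48% in KO at D0, against 7% and 5.57% in WT. Cox6b2, the isoform known from testis, took 8.14% to 25.2% of the Cox6b set in the cell libraries and 0.109% to 1.95% in the embryo libraries. The cells and embryos differ in library kit as well as in kind, so this last difference was not tested.

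Other gene groups were called in KO cells at D8 too, where 12.5% of all genes were called higher and 8.24% lower. Of 76 mitochondrial ribosomal protein genes, 40 rose and none fell (median 0.68, with Mrpl15 at 1.20, Mrpl19 at 1.04 and Mrps16 at 1.39), and in WT at D8 relative to D0, a comparison that shares the WT libraries of D8, 2 rose and 40 fell (median -0.55). Of 44 assembly factors, 15 rose, among them Sco1 (0.91), Tmem70 (0.83) and Coa5 (0.75). Cycs rose by 1.36 and Tfam, a factor that packages and transcribes mitochondrial DNA, by 0.59. In the citric acid cycle list 6 of 20 rose, led by Pdhb (1.11), Sucla2 (1.05) and Suclg1 (1.17). None of the 6 partners of the ATP synthase was called at D8. Of 81 tested genes for cytosolic ribosomal proteins, 45 rose and their median was 0.76, close to the 0.73 of the respiratory chain genes. Cytosolic ribosomal protein genes took 10.865%, 16.305% and 10.845% of the counts in KO at D8, against 8.62% and 8.231% in WT.

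The KO cells at D8 also differed from WT in cell type markers. All 6 markers of young neurons fell, summing to 201, 404 and 431 CPM in KO, against 1460 and 1000 CPM in WT. The 7 markers of neural progenitors summed to 535, 696 and 779 CPM in KO, against 1080 and 1090 CPM in WT, and 2 of them fell, Nes and Hes5, although all 7 rose at D8 over D0 in KO and in WT. Of 6 tested markers of definitive endoderm and axial mesoderm 3 rose, Sox17, Krt19 and Foxa2, and the 7 of that list summed to 197, 352 and 465 CPM in KO, against 118 and 60.3 CPM in WT. Of 8 tested markers of visceral endoderm 3 rose, Ttr (3.36), Amn (2.30) and Cited1 (2.17), and the 12 of that list summed to 61.5, 121 and 122 CPM in KO, against 22.8 and 26.9 CPM in WT. The 7 markers of embryonic stem cells summed to 258, 155 and 174 CPM in KO, against 57.1 and 118 CPM in WT, and 1 of them, Klf4, rose by 3.16. The part of these in the respiratory chain result was not tested. On chromosomes 6 and 14 the genes as a whole were shifted upward in KO on both days, by medians of 0.30 and 0.47 at D0 and 0.45 and 0.50 at D8. Ndufb2, Ndufa9, Ndufa5 and Ndufa4 lie on chromosome 6 and are among the 33 genes called higher at D8. Setting both chromosomes aside without a new fit leaves 29 higher and 1 lower. This follows from dropping these 4 genes and is no test of the shift. Chromosome 11 was shifted less, by 0.20 at D0 and 0.24 at D8. It holds Atp5g1, Uqcr10 and Uqcrq, which were called higher at D8, and Atp5h, which was not (adjusted p = 0.0532).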

How the data were processed

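RNA sequencing libraries of 18 embryo and 10 cell samples were used, and the genomic libraries of the series were not analysed here. The authors deposited unnormalised whole-number counts of reads per gene, with embryos and cells in separate tables. Guanidine thiocyanate and Nextera XT served for embryo RNA and its libraries, and Trizol and a NEBNext kit for cell RNA, per the labels' protocols. Tools named in the submitters' processing notes, without their roles, are BWA, TopHat2 2.0.9 and CASAVA 1.8, with the build mm10. Which program, annotation and strand setting made the counts is not given in the sources used, and overlapping genes or pseudogene copies of these genes may therefore share counts.

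The members and lists were chosen with earlier results of these data known. Columns were matched to samples by name, which left 6 unmatched columns of embryo values unused. Each table was fitted separately, with group as the sole term, by edgeR 4.0.16 (glmQLFit, robust, in R 4.3.3) after filterByExpr (minimum count 10, minimum total 15) and TMM scaling. This kept 14403 genes in embryos and 14629 in cells. P-values were adjusted by the Benjamini-Hochberg method over all genes tested, a gene was called at an adjusted p under 0.05, and SE is the log2 fold change over the square root of F. Alternatives were DESeq2 1.42.0, other scalings and filters, a replicate block and leaving out each library. Named were, in each comparison and complex, the 3 called genes with the smallest p, called genes moving against the rest, highly expressed uncalled genes, catalytic subunits and isoform sets. From each list, the 3 called genes with the smallest p were eligible. Genes and counts named outside this rule, such as Ndufa5, the 3 core subunits of complex I and full sets of few calls, were chosen after their values were seen.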

Additional observations from a re-analysis of the deposited data

Results flagged for a closer look

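The 4 genes whose KO effect differed between D8 and D0, by a test of the difference itself, were Atp5g1, Ndufaf4, Sdhd and Uqcr10. The difference, KO minus WT at D8 less KO minus WT at D0, was 1.268 on the log2 scale for Atp5g1, 1.161 for Ndufaf4, 0.911 for Sdhd and 1.259 for Uqcr10 (edgeR, adjusted p = 0.0256, 0.0433, 0.0406 and 0.0496 in that order). Uqcr10 had 230.9, 320.9 and 184.9 CPM in KO at D8, against 108.5 and 104 CPM in WT, and 258.4, 174.1 and 170.8 CPM in KO at D0, against 212.1 and 203.8 CPM in WT, so that the genotypes overlapped at D0. All 4 calls rest on groups of 2 and 3 libraries. The count of 4 among 87 lies close to the 3% of all genes called higher. Leaving out single libraries gave between 0 and 63 calls. Scaling by total counts alone gave 1 call, the replicate block 2, DESeq2 size factors 2 and DESeq2 12.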

How the results depend on the processing

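Under the alternatives, 130 counts of called genes stayed within 1.5 times the reported count and 40 did not. Counts of 0 that stayed at 0 are among the 130, so that number does not show how steady the comparisons with calls were. Of the medians, 169 moved by less than the spread and 15 by more. Leaving out the 50 genes of highest share moved each of the 7 share ratios by less than its propagated SD, which was wide for some. Scaling by total counts alone gave 2 calls for ExE at E6.5, 18 at E7.0 and 32 at E7.5, 18 for KO over WT at D8 and 1 for the change of the KO effect between days. Under it the median of all genes reached -0.618 for the change between E6.5 and E7.5, so medians here are given above that of all genes. With no filter, ExE at E7.0 had 15 calls, P over A at E7.5 had 1, the E7.5 embryonic regions over Epi had 1, ExE of E7.5 over E6.5 had 3, and the median for ExE at E6.5 was 0.14. DESeq2 gave 3 calls for ExE of E7.5 over E6.5 and 12 for the change of the KO effect, and DESeq2 size factors gave 2 for that change. The cause of these moves was not tested.

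The labels do not say that a replicate number marks a shared batch, and not every same-number pair correlated above 0.1, so the samples were not treated as paired. In all, 40 of 72 same-number correlations of deviations in embryos exceeded 0.1 (from -0.098 to 0.563), and 3 of 13 in cells (from -0.041 to 0.17). In a group of 2 libraries the deviations mirror each other, so every embryo correlation was counted 2 times. By mean correlation, 18 of 18 embryo and 8 of 10 cell libraries were closest to their own number. Both libraries of an embryo group must give the same answer here, so these are not 18 separate observations. The closeness is a hint from the data and not from the design. The highest values lay between embryonic regions of the same stage. At E7.0 the correlation was 0.321 for A and P. At E7.5 it was 0.363 for AM and A, 0.374 for A and P and 0.563 for AM and P. Same-stage pairs with ExE ran from 0.063 to 0.22. The replicate block gives each number 1 shift across all stages, so it does not model a pairing within a stage. No fit paired within a stage was run. With the replicate block, 2 genes were called for the change of the KO effect, and the other counts stayed within 1.5 times or stayed at 0.

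Leaving out 1 library gave 0 to 16 calls for ExE at E7.0, 2 to 57 at E7.5, 0 to 1 for ExE of E7.5 over E6.5, 10 to 14 for WT D8 over D0, 5 to 69 for KO over WT at D8 and 0 to 63 for the change of the KO effect. The medians ran from 0.105 to 0.226 for ExE at E6.5, 0.203 to 0.725 at E7.0 and 0.451 to 1.42 at E7.5. They ran from 0.304 to 1.18 for the change between E6.5 and E7.5, from -0.393 to 0.186 for P over A at E7.0, from -0.0425 to 0.894 at E7.5, from -0.247 to -0.127 for WT D8 over D0 and from 0.479 to 1.07 for the change of the KO effect. With 2 or 3 libraries a group, 1 library decides much of the width of these calls. Where an arm keeps 1 library, it is assumed to vary like the other groups.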

Other observations

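Genes outside the lists were ranked by how closely their levels followed the median of the tested subunits of complexes I to V. The assembly factors and others were left out of that median. Across the 18 embryo libraries the closest were Ost4 (Spearman correlation 0.973) and Tmem258 (0.965), small subunits of the enzyme that attaches sugars to proteins in the endoplasmic reticulum. Next came Atp6v1f (0.942), a subunit of the proton pump of lysosomes, and Dph3 (0.928) and Bola2 (0.926). Across the 10 cell libraries they were Haus3 (1), Fastkd2 (0.988), Hsp90b1 (0.988), Kdelr2 (0.976) and Mphosph6 (0.976). Libraries of 1 table share a kit and these are descriptions with no test.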
